A study of Mus musculus with 3 samples.

Results

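The sites described here are the cytosines that the m5C list of the mouse germinal vesicle (GV) oocyte held and that the lists of the metaphase II (MII) oocyte and the 1-cell embryo did not. They were chosen by their measured values, since a cytosine entered a list through its coverage, its level and its number of unconverted reads at that stage. Of the 15910 sites of the GV list, 2623 (16.5%, exact 95% interval 15.9 to 17.1) were listed at this stage alone, in 1952 genes. They are called GV-alone sites below, and the 13287 sites that the GV list shared with 1 or both later lists are called other GV sites. Of all 40298 distinct sites of the 3 lists, 6.51% were GV-alone sites. The 1-cell list used is the deposited one, which is not identical to that in the supplement of the study, so membership holds for the deposited lists. A missing entry in a later list does not show a loss of methylation, because a site below the limits of the list and a site without enough reads are both absent from it.

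5-Methylcytosine (m5C) in mRNA is written by methyltransferases of the NSUN family. NSUN2 acts mainly where G-rich bases follow the cytosine, called Type I sites, and NSUN6 acts on the motif CUCNA, called Type II sites, where the first letter is the methylated base. As in the methods of the study, each site without CUCNA was counted as Type I here, whether or not G-rich bases followed it. A fully grown oocyte is transcriptionally silent and stores its mRNAs, which are translated, stabilized or degraded as meiosis resumes and the egg is fertilized. The GV oocyte is the stage before meiotic resumption, the MII oocyte is arrested and ready for fertilization, and the 1-cell embryo still depends largely on stored mRNA.

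All 3 libraries came from wild-type C57BL/6J mice whose females were 7 to 8 weeks old. According to the labels, GV oocytes were taken from ovaries 48 h after 10 IU of PMSG, MII oocytes 12 h after 5 IU of hCG in females primed with 10 IU of PMSG, and 1-cell embryos 24 h after 5 IU of hCG in mated females primed with 5 IU of PMSG. For MII oocytes the methods of the study state more hCG than the labels do, and they describe ovulation for the embryos as induced alike. Bisulfite converts unmethylated C to U, so a read that still shows C counts toward the m5C level of the site, which is given as a percent of its reads. There was 1 library per stage, so no value below has a replicate check and no test between stages was possible. Intervals are exact 95% binomial intervals for shares and order-statistic intervals for medians, and they cover counting error alone. The median coverage of a listed site was 121 reads in GV, 107 in MII and 58 in the 1-cell embryo, and stage and library cannot be told apart. Of 12 oocyte marker genes, 6 held listed sites in GV, with 8 sites covered by 198 to 16549 reads and no GV-alone site among them. Of 18 granulosa cell markers, 1 held a GV site, and this was the GV-alone site of Nr5a2 described below.

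The sequences around the GV-alone sites of highest level among those with at least 100 reads are shown first, because these are the sites for which few reads or a level near the limit are least at issue. Each line gives 21 bases of the RNA strand, 5′ to 3′, with U written as T and the listed cytosine in capitals, read from the RefSeq GRCm38 (mm10) genome.
Epb41l4b, chr4:57143395-57143415, minus strand, 5′ UTR: gcgacagcagCgggacggtcc
Rnf111, chr9:70503622-70503642, minus strand, 5′ UTR: atcgggtgctCggagccgggt
Rnf111, chr9:70503624-70503644, minus strand, 5′ UTR: cgatcgggtgCtcggagccgg
Hnrnph1, chr11:50383886-50383906, plus strand, coding: ttatggtagcCaaatgatggg
Fanci, chr7:79443766-79443786, plus strand, coding: ctaagatttgCaaggaataca
Lzts2, chr19:45026013-45026033, plus strand, coding: ttcagcggtaCcgccaggagg
Lzts2, chr19:45026014-45026034, plus strand, coding: tcagcggtacCgccaggaggc
Rhobtb2, chr14:69796486-69796506, minus strand, coding: ggggcccttcCgggctgttct
Alkbh5, chr11:60556237-60556257, plus strand, 3′ UTR: ttcttgtactCagcagctagg

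The next set holds the Type II GV-alone sites of highest level among those with at least 50 reads. Here the capitals mark the site and the rest of the motif, which was CTCCA in each. The windows of Mipep and Col6a4 cross an exon junction and were read from the spliced transcript, so the site alone has a coordinate.
Mipep, chr14, site at 60802964, plus strand, coding: atagctcagaCTCCAgagact
Rnh1, chr7:141163211-141163231, minus strand, coding: atgttgtggcCTCCAaagctt
Nr2c1, chr10:94181543-94181563, plus strand, coding: gggagtcggcCTCCAgactgc
Sumf2, chr5:129862640-129862660, plus strand, coding: atgggaaacaCTCCAgactca
Col6a4, chr9, site at 106079950, minus strand, coding: gagcgggagtCTCCAgcgtgc
Ephx2, chr14:66110230-66110250, minus strand, coding: acaggaagtcCTCCAaagcct

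GV-alone sites were thinly covered and close to the list limits. Their median coverage was 46 reads (45 to 47, quartiles 31 and 73, range 20 to 2675), against 150 reads (147 to 154, quartiles 73 and 323) for other GV sites. Their median level was 15.4% (15 to 15.8, quartiles 12.0 and 23.1), against 20.5% (20.1 to 20.8) for other GV sites. The median number of unconverted reads was 8 at a GV-alone site and 33 at another GV site. Low values were not particular to GV. Sites listed in MII alone had medians of 62 reads, 13.95% and 9 unconverted reads in MII. Sites listed in the 1-cell embryo alone had medians of 56 reads, 19.35% and 12 unconverted reads in that embryo. Of the GV-alone sites, 487 (18.6%) held exactly 5 unconverted reads, the fewest that the list allowed, against 233 (1.75%) of other GV sites. At a level from 10% to below 12%, just inside the limit of 10%, lay 656 (25.01%) GV-alone sites and 1749 (13.2%) other GV sites. Sites with under 50 reads or a level under 15% made up 2365 (90.2%) of the GV-alone sites and 5411 (40.7%) of the others. These values bear on whether a site was listed, so they describe the rule and carry no test.

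**Figure D1:**
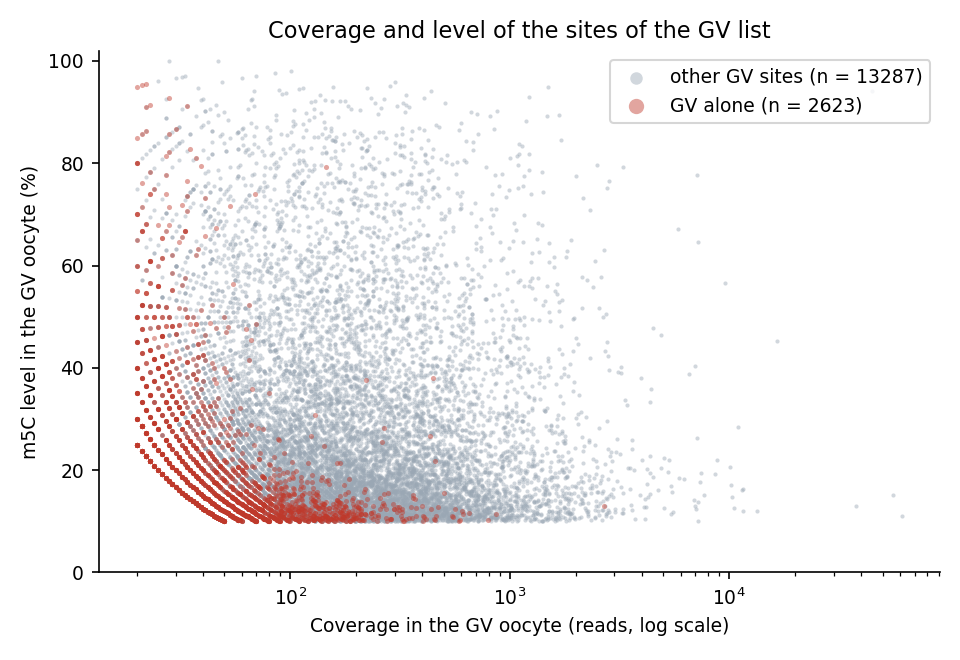
Coverage in reads (horizontal, log scale) and m5C level in percent (vertical) of each site of the GV list, with 2623 GV-alone sites in red over 13287 other GV sites in grey. GV-alone sites crowd along the lower left edge, where a site holds exactly 5 unconverted reads or lies at 10%, and few lie above 20% at 100 reads or more.

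The share of GV sites that were listed at this stage alone fell from bin to bin of coverage. It was 60.2% (57.0 to 63.3) at 20 to below 30 reads, 38.5% at 30 to below 50, 20.99% at 50 to below 100, 8.34% at 100 to below 200, 2.58% at 200 to below 500 and 0.619% (0.320 to 1.08) at 500 or more. By level the range was narrower, from 27.3% (25.5 to 29.1) of the sites at 10% to below 12%, to 6.83% (5.70 to 8.12) of those at 50% or more. Taking both together, 64 of 91 sites (70.3%) with 20 to below 30 reads and a level of 15% to below 20% were GV-alone sites. At 500 reads or more, 0 of 366 sites at 20% to below 30%, 0 of 323 at 30% to below 50% and 0 of 193 at 50% or more were. Highly methylated sites followed the same order by coverage, as 86 of 184 sites (46.7%) at 50% or more were listed in GV alone at 20 to below 30 reads and 5 of 362 (1.38%) were at 50 to below 100 reads.

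**Figure D2:**
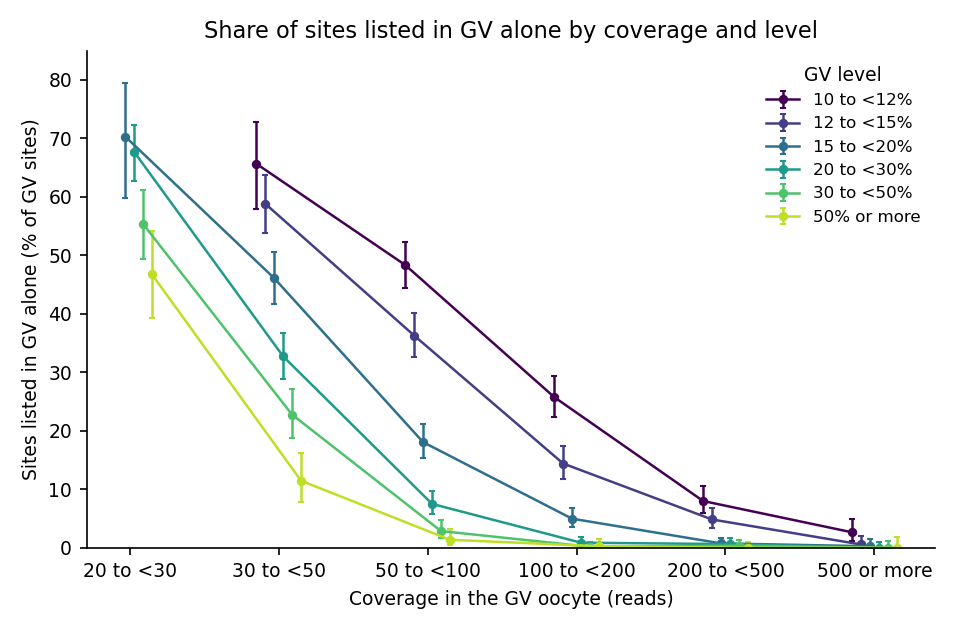
Share of the sites of the GV list that were listed at this stage alone (vertical, percent) by coverage in reads (horizontal) and by GV level (colours), with exact 95% binomial intervals. The share was highest, 70.3%, at 20 to below 30 reads and 15% to below 20%, and was 0 at 500 reads or more for sites at 20% or above.

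Against this pattern stood 14 GV-alone sites (0.534%) with a level of at least 20% and at least 100 reads, where 4050 other GV sites (30.5%) lay. The highest level among them was in the 5′ UTR of Epb41l4b, which encodes a protein of the band 4.1 family that links membrane proteins to the cytoskeleton. This site, in exon 1 on chromosome 4 at position 57143405, held 115 unconverted of 145 reads, a level of 79.3% (71.8 to 85.6). The same gene (ENSMUSG00000028434) held 3 further GV-alone sites in exon 1, at 12.8% of 133 reads and 19.6% of 46 reads in the 5′ UTR and 10.9% of 55 reads in the coding sequence. Its remaining GV site, in the 3′ UTR, was shared with MII at 13.0% of 162 reads and 10.4% of 134 reads. The MII site nearest to exon 1 was 64528 nt away on the genome, so the reads that MII had over exon 1 cannot be read from its list.

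Rnf111 (ENSMUSG00000032217), an E3 ubiquitin ligase that acts in TGF-beta signalling, held a pair of GV-alone sites 2 nt apart in the 5′ UTR of exon 1. Their levels were 38.03% (33.5 to 42.7) of 447 reads and 26.7% (22.6 to 31.1) of 431 reads, and the gene had no other GV site. MII listed 2 sites of the gene in exons 3 and 9, at 10.0% of 598 reads and 10.4% of 269 reads. The 1-cell embryo listed a site in the same 5′ UTR, 68 nt from the nearer GV-alone site, at 16.5% of 133 reads. A part of this 5′ UTR was thus read in the 1-cell library, while the nearest MII site was 27709 nt away.

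Lzts2 encodes a leucine zipper protein of the centrosome, and its GV-alone sites lay next to sites that the other oocyte listed. All 10 of its GV sites were in the coding sequence. The 6 upstream sites were all in the MII list as well, and the 4 downstream sites, within exon 5, were GV-alone sites. The levels of the latter were 28.2% of 266 reads, 25.5% of 263, 13.6% of 265 and 13.2% of 219, the first pair on adjacent bases. The last shared site lay 73 nt upstream of the first GV-alone site, with 14.7% of 231 reads in GV and 14.4% of 188 reads in MII. The 1-cell embryo listed the base after that shared site, at 21.1% of 76 reads. The gene background, the unconverted rate of its other cytosines, was 0.829% in GV, against a median of 0.298% over GV-alone sites.

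Hnrnph1, a splicing regulator, held its one listed site at 37.6% (31.1 to 44.3) of 221 reads and had no site in either later list. Fanci, which acts in the repair of DNA crosslinks, held a GV-alone site in exon 28 at 30.8% of 130 reads between sites in exons 27 and 31 that MII also listed. Those neighbours had 24.1% in GV and 14.4% in MII, and 36.7% and 47.5%, with 90 and 40 reads in MII. Rhobtb2 had 26.6% of 124 reads in GV, and the 1-cell embryo listed a site 25 nt away at 18.4% of 49 reads. Alkbh5, an RNA demethylase of N6-methyladenosine, held 21.8% (18.1 to 25.8) of 455 reads in its 3′ UTR. Its 5′ UTR site was shared by both oocytes at 31.9% of 335 reads and 32.2% of 267 reads. A site in a gene model on an unplaced scaffold held 24.6% of 142 reads.

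The most deeply covered GV-alone sites, by contrast, were all within a few percentage points of the limit of 10%. The deepest was in the coding sequence of Rps21, a protein of the small ribosomal subunit, at 12.9% (11.7 to 14.3) of 2675 reads. This gene held no other listed site in any of the lists. Ribosomal protein genes have processed copies among which reads can be misplaced, and whether this was so here was not tested. The other 9 ranged from 10.0% of 588 reads in Tmem131l to 12.5% of 561 reads in Scaf1, a splicing-related protein. They also included Cabin1, an inhibitor of calcineurin, at 11.6% of 653 reads, Pdap1 at 11.4% of 613, Rab2a, a GTPase of endoplasmic reticulum to Golgi traffic, at 11.9% of 604, and Lrrc59, a ribosome-binding membrane protein, at 10.3% of 595. Txndc5, a disulfide isomerase, had 10.8% of 554 reads. Except at Rps21, the lower end of each interval was below 10%.

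**Figure D3:**
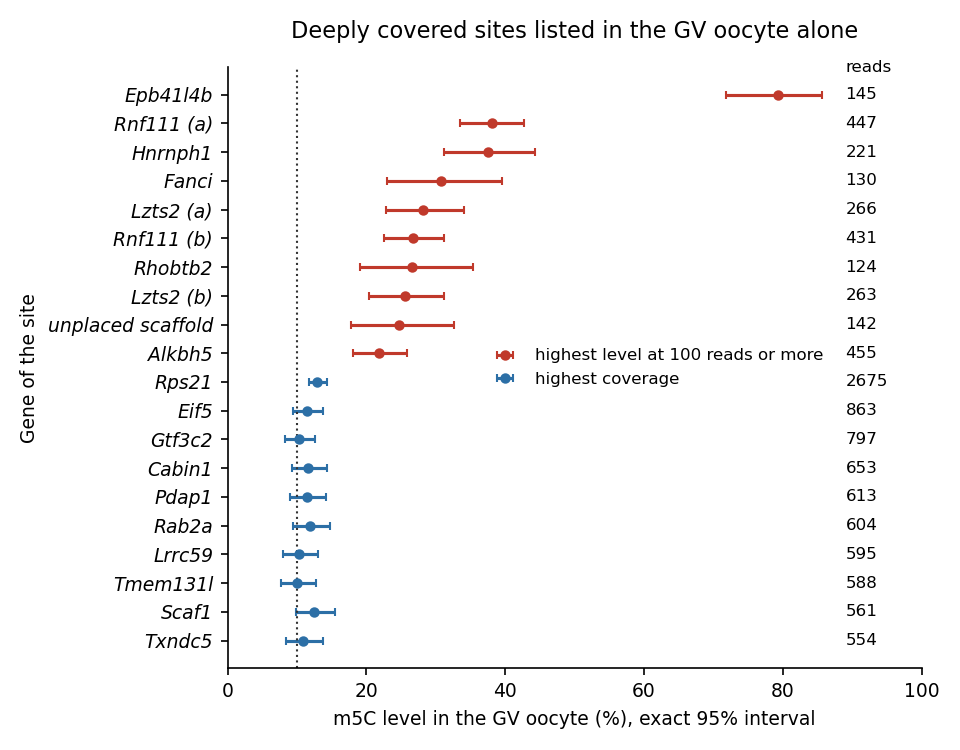
m5C level in the GV oocyte (horizontal, percent, with exact 95% binomial intervals) of the 10 GV-alone sites of highest level among those with at least 100 reads (red) and the 10 of highest coverage (blue), with the reads at each site on the right and the limit of 10% dotted. Levels run from 21.8% to 79.3% in the first set and from 10.0% to 12.9% in the second, and (a) and (b) mark 2 sites of a gene.

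For some GV-alone sites a nearby site shows that MII reads did cover the place. In this pair of sequences the capitals mark the GV-alone cytosine, at the centre, and the neighbouring cytosine that MII listed.
Eif5, chr12:111538401-111538421, plus strand, 5′ UTR: cagtccctccCgctgctCggc
Gtf3c2, chr5:31172871-31172891, minus strand, coding: ttctcCaggtCgagggtgaag
In Eif5, a translation initiation factor, the GV-alone site had 11.5% (9.42 to 13.8) of 863 reads in GV. The neighbour 7 nt away had 11.5% of 852 reads in GV and 11.5% of 836 reads in MII. In Gtf3c2, a subunit of the RNA polymerase III factor TFIIIC, the GV-alone site had 10.3% (8.27 to 12.6) of 797 reads. Its neighbour 5 nt away had 17.1% of 836 reads in GV, 17.96% of 813 in MII and 23.1% of 234 in the 1-cell embryo. The places of both sites were therefore deeply read at MII, and in GV both stood close enough to 10% that their intervals included it.

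Over all GV-alone sites, 179 (6.82%) had a site of the same gene in the MII list within 25 nt, and 98 of these neighbours had at least 50 reads in MII. Counted by strand without regard to gene, 12.8% of other GV sites had another MII site within 25 nt, against 6.82% of GV-alone sites. At 1672 sites shared by both oocytes the neighbour had a median of 1 times the coverage of the site. The 5% and 95% points were 0.818 and 1.25. These sites all passed the MII limits, so the ratio cannot show how well a neighbour stands in for a GV-alone site. Among the 98 GV-alone sites with a well covered neighbour, 81 had a GV level under 15% and 3 had 20% or more, with a median of 12.0%. This median was near the 12.2% of all GV-alone sites with at least 50 GV reads, whether or not they had such a neighbour. In the 1-cell list 26 GV-alone sites had such a neighbour with at least 50 reads, and 25 of them had a GV level under 15%. The 3 sites of 20% or more, picked after their values were seen, included 6330562C20Rik, with 41.5% of 41 reads in GV and an MII neighbour 25 nt away at 50% of 60 reads. Dcaf15, a substrate receptor of a ubiquitin ligase, had 27.1% of 59 reads in GV and an MII neighbour 15 nt away at 12.1% of 58 reads. Ints1, a subunit of the Integrator complex, had 17.9% of 112 reads in GV next to a base that MII listed at 56.8% of 95 reads.

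Coverage over the genes of GV-alone sites was set side by side between the oocyte lists. For 1845 GV-alone sites (70.3%) the gene held a site listed in both oocytes, and the median ratio of MII to GV coverage at those sites was 0.863 (0.850 to 0.872), against 0.870 (0.867 to 0.874) for other GV sites. These are sites that stayed in the MII list, so genes with a larger drop are left out of the ratio. With the GV coverage scaled by the ratio of its gene, 160 of the 1845 sites (8.67%) would have had under 20 reads in MII, and at the GV level 387 (20.98%) would have had under 5 unconverted reads. The GV levels used here belong to sites chosen for passing the GV limits, and no allowance was made for counting error. These counts therefore cannot show how many of the sites MII should have listed. Among sites that both oocytes listed and the 1-cell embryo did not, 215 had an MII level under 11%. Their medians were 12.5% in GV and 10.6% in MII. These 215 sites were chosen by their MII level, so a low MII median follows from the choice. A higher GV median follows from it at least in part. The medians therefore cannot show a drop in level from GV to MII.

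Most genes held a single GV-alone site. Of the 1952 genes, 1474 had 1, 343 had 2 and 135 had 3 or more, and in 635 genes each GV site was a GV-alone site, 538 of which had 1 GV site. The gene with most was Abca2, a lipid transporter, with 8 of its 10 GV sites, at 10.4% to 51.6% of 24 to 67 reads. This gene had 3 sites in MII with a median of 39 reads and 2 in the 1-cell embryo with a median of 21, against 48.5 reads in GV. Nphp4, a protein of the ciliary transition zone, had 7 of 11, at 12.2% to 54.5% of 21 to 59 reads. Megf6, which carries EGF-like domains, had 6 of 6, at 13.6% to 66.7% of 21 to 54 reads, and MII listed 1 site of it at 34 reads.

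Vps13d, a lipid transfer protein, had 5 of 18 GV sites listed in GV alone, at 10.2% to 16.2% of 68 to 205 reads. Dop1b, a protein of endosome and Golgi traffic, had 5 of 17, at 10.7% to 21.6% of 77 to 122 reads, and the 1-cell embryo listed no site of it. Srebf2, the transcription factor of cholesterol synthesis, had 5 of 8 at 13.4% to 48.4% of 23 to 82 reads. No site of Srebf2 was in the MII list, so by the rule its 3 remaining GV sites had to be in the 1-cell list. They had 29.7%, 36.1% and 44.0% of 37, 36 and 25 reads there. Its GV levels at those 3 sites were 24.7%, 18.2% and 16.3%.

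Whole genes were absent from the later lists for 359 GV-alone sites (13.7%) in 305 genes. Their median coverage was 34 reads and their median level 21.2%. A further 620 sites (23.6%) were in genes that MII alone still listed, 138 (5.26%) in genes that the 1-cell embryo alone listed and 1506 (57.4%) in genes that both listed. Those 1506 sites were 11.6% (11.02 to 12.1) of the GV sites of such genes, had a median coverage of 51 reads and a median level of 14.3%. Most GV-alone sites were thus in genes with listed cytosines at both later stages, as were 13020 of all 15910 GV sites. The share of 11.6% in such genes was below the 16.5% over all GV sites, which follows at least in part from the rule. Genes in neither later list hold GV-alone sites only, so leaving them out lowers the share. With no replicate and no list of covered cytosines, fewer transcripts and less methylation per transcript cannot be told apart for the genes that left the lists.

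Among genes in neither later list, Gli2, a transcription factor of Hedgehog signalling, had most GV sites. Its 5 sites lay between 10.4% and 13.0% with 39 to 48 reads, and 4 of the 5 held exactly 5 unconverted reads. Ppm1m, a protein phosphatase, had 4 sites in the coding part of exon 1, where 3 adjacent bases had levels of 92.9% (76.5 to 99.1), 40.7% and 39.3% of 27 or 28 reads and a base 48 nt away had 22.2%. Pigt, a subunit of the transamidase that attaches GPI anchors, had 11.7% to 16.7% of 36 to 82 reads. Mmp24, a membrane-bound metalloproteinase, had 12.2% to 15.8% of 38 to 52 reads in its 3′ UTR. Plec, a cytoskeletal linker, had 10.6% to 16.7% of 41 to 47 reads, and Lrp8, a receptor of reelin, had 16.7% to 20.0% of 25 to 38 reads. Apart from the base of Ppm1m, each of the sites named in this group was at 40.7% or below.

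Absence of a gene from the MII list was most frequent at a high unconverted background, but did not follow the background in order. Over GV-alone sites the median background was 0.298% (0.288 to 0.309), near the 0.296% of other GV sites. Genes above 1% held 99 GV-alone sites (3.78%, 3.08 to 4.58) and 150 other GV sites (1.16%, 0.981 to 1.36). Of 135 GV genes with a background above 1%, 43 (31.9%, 24.1 to 40.4) held no MII site, against 232 of 2710 (8.56%, 7.53 to 9.68) under 0.25%, 117 of 2365 (4.95%, 4.11 to 5.90) at 0.25% to below 0.5% and 88 of 657 (13.4%, 10.9 to 16.2) at 0.5% to below 1%. Among genes whose GV sites had a median coverage of at least 50 reads the shares were 22.2% (12.7 to 34.5) above 1%, and 4.19% (3.38 to 5.14), 1.64% (1.13 to 2.31) and 6.67% (4.54 to 9.38) in the lower classes in that order. Ppm1m (1.27%), Rnh1 (1.18%), Pigt (1.12%) and Srebf2 (1.02%) were among the genes above 1% without regard to coverage. The methods of the study name a filter on genes that resist conversion, and its part in this difference was not tested.

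Type II sites made up 157 (5.99%, 5.11 to 6.96) of the GV-alone sites and 783 (5.89%, 5.50 to 6.31) of the others, with intervals that overlapped. Their median coverage was 45 reads and their median level 15.4%, against 144 reads and 23.2% for Type II sites among the other GV sites. The highest level with at least 50 reads was in Mipep, a mitochondrial peptidase, at 35.8% (24.5 to 48.5) of 67 reads. Rnh1, the cytosolic inhibitor of ribonucleases, had 20.0% of 55 reads, and its gene was in neither later list. Nr2c1, an orphan nuclear receptor, had 19.6% of 51 reads, and Sumf2, a relative of the sulfatase-modifying enzyme, had 19.6% of 97. Col6a4, a collagen VI chain, had 18.4% of 76, and Ephx2, an epoxide hydrolase, had 18.3% of 60. The intervals of these 6 levels overlapped.

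The bases after the site were nearly the same in both sets. Type I GV-alone sites held a mean of 2.21 G among the 4 bases that follow (SD 0.873 over sites), against 2.24 (SD 0.855) in other Type I GV sites, and the base at +2 was G in 67.7% and 69.2%. Read as 5 bases from the site on, CAGGG began 8.12% of GV-alone sites and 8.45% of the others, CTCCA 5.57% and 5.50%, and CGGGG 5.41% and 5.55%. The share was 5.99% (5.11 to 6.96) against 4.85% (4.49 to 5.23) for CAGAG and 5.87% (5.00 to 6.84) against 7.10% (6.67 to 7.55) for CAGGA. The MII alone sites had a mean of 2.175 G and a Type II share of 3.82% (3.34 to 4.34), below that of GV-alone sites. The 1-cell embryo alone sites, in comparison, had a mean of 1.86 G and a Type II share of 2.73%. In these respects GV-alone sites lay near other GV sites and apart from the sites of the 1-cell embryo alone, a difference that has no replicate check. The labels also describe the bisulfite conversion of the embryos in other terms than that of the oocytes, and its part in this difference was not tested.

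Predicted folding of the site with 50 nt on each side also differed little. The site was paired in 55.9% (54.0 to 57.9) of 2556 GV-alone windows and in 58.0% (57.1 to 58.8) of 13103 others, and with windows of 61 nt in 53.9% and 53.8%. Pairing rose to 73.3% at the base 3 nt downstream of GV-alone sites and 73.9% for the others. Type II sites were paired in 35.3% (27.7 to 43.4) of GV-alone windows and 33.1% (29.8 to 36.6) of the others. With windows of 61 nt these Type II shares lay further apart, at 32.7% and 24.4%. The median folding energy was -30.4 and -30.6 kcal/mol.

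**Figure D4:**
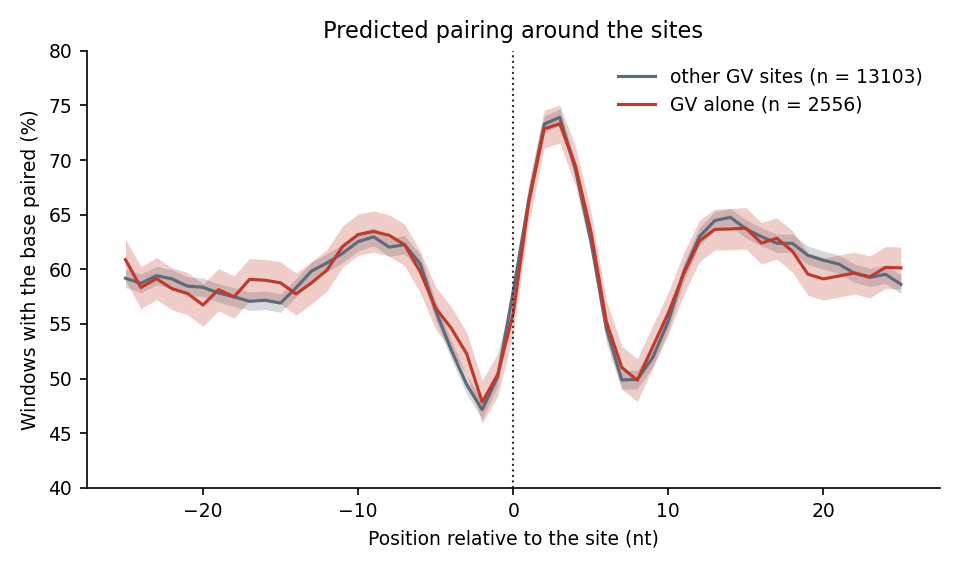
Share of windows of 50 nt on each side of the site in which a base was predicted to be paired (vertical, percent, axis from 40 to 80) by position relative to the site in nt (horizontal), for GV-alone sites in red and other GV sites in grey, with exact 95% binomial bands. Both profiles have a minimum just upstream of the site and a maximum of 73.3% and 73.9% at 3 nt downstream.

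The position in the transcript differed between the sets as deposited and less so among well covered sites. Of the GV-alone sites 1604 (61.2%, 59.3 to 63.0) were in the coding sequence, against 69.5% (68.7 to 70.2) of other GV sites. The 3′ UTR held 597 (22.8%, 21.2 to 24.4) against 17.9% (17.3 to 18.6), and the 5′ UTR 330 (12.6%, 11.3 to 13.9) against 10.9% (10.4 to 11.4). With at least 100 reads the coding share was 74.3% (69.7 to 78.5) against 73.3%, the 3′ UTR share was 12.9% (9.76 to 16.5) against 16.1% (15.3 to 16.8) and the 5′ UTR share was 11.6% (8.67 to 15.2) against 9.37%. The excess in the 3′ UTR over other GV sites was thus turned round at 100 reads or more, where the intervals still met. Median levels of GV-alone sites were 14.6% in the coding sequence, 16.7% in the 5′ UTR and 16.5% in the 3′ UTR, with median coverages of 50, 40.5 and 41 reads.

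**Figure D5:**
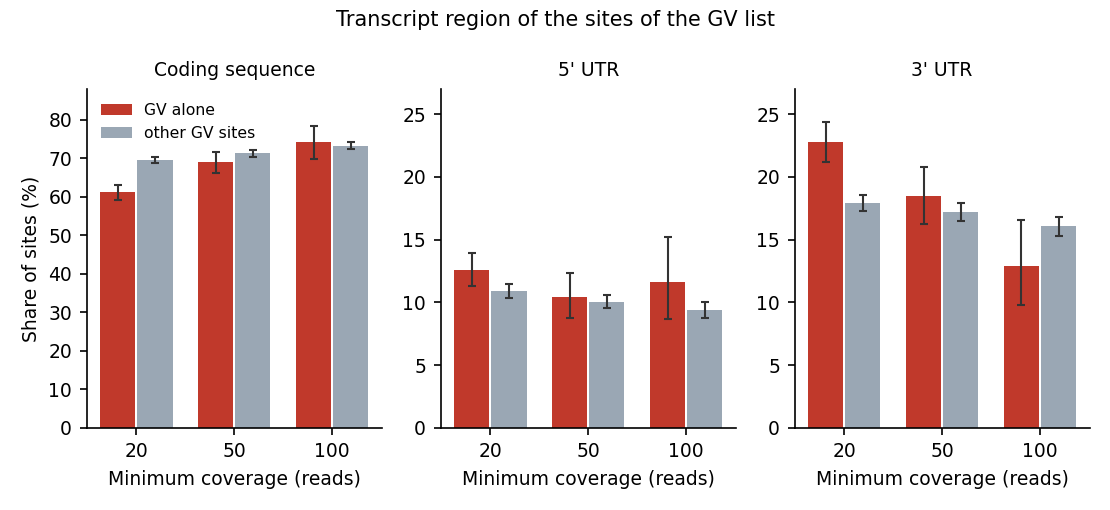
Share of GV-alone sites (red) and other GV sites (grey) in the coding sequence, 5′ UTR and 3′ UTR (vertical, percent, with exact 95% binomial intervals) among sites with at least 20, 50 or 100 reads (horizontal). The coding share of GV-alone sites was 61.2%, 69.0% and 74.3%, and that of other GV sites 69.5%, 71.3% and 73.3%.

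Spacing to other listed sites was set side by side without a test. Within 10 nt of any other listed site on the same strand lay 179 (6.82%, 5.89 to 7.86) GV-alone sites and 1541 (11.6%, 11.1 to 12.1) other GV sites. Among sites with at least 100 reads the shares were 10.4% (7.60 to 13.8) and 12.6% (11.9 to 13.3), whose intervals met. Runs made up of GV-alone sites were few, and 37 of them lay on the base next to another GV-alone site, as in Ppm1m, Lzts2 and Mmp24. By transcript type 2556 (97.4%) were in protein-coding genes and 20 in antisense transcripts.

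For lists of genes with roles in the oocyte, counts are read against the 16.5% over all GV sites and, among sites under 100 reads, against 32.2% (31.1 to 33.3). Secreted factors and zona pellucida proteins, such as Gdf9 and Zp3, had 0 of 16 GV sites listed in GV alone, which at these few sites allows a share of up to 20.6%, and their GV sites had a median coverage of 872.5 reads. A list of transcription factors drawn up for the oocyte had 2 of 15 (13.3%, 1.66 to 40.5), both in Gata4. This gene is not particular to the oocyte and was in neither marker set. Its GV-alone sites had 16.2% of 111 reads in the coding sequence and 10.9% of 137 reads in the 3′ UTR. The first of these lay 17 nt from a base that MII listed at 24.8% of 105 reads and GV at 29.6% of 115 reads. Maternal effect genes, whose products the egg supplies to the embryo, had 8 of 143 (5.59%, 2.45 to 10.7), and their GV sites had a median coverage of 550 reads. Among their 13 sites under 100 reads, 6 were GV-alone sites (46.2%, 19.2 to 74.9).

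Among maternal effect genes, Dnmt3a, the de novo DNA methyltransferase of the oocyte, had 3 GV-alone sites of its 4 GV sites, at 18% of 50 reads, 13.9% of 36 and 23.8% of 21. Eed, a subunit of Polycomb complex PRC2, had the deepest, in its 5′ UTR at 14.6% (11.2 to 18.7) of 362 reads, with MII and 1-cell sites 211 and 187 nt away. Sall4, a zinc finger factor of pluripotency, had 23.3% of 60 reads beside 11 other GV sites. Hira, a histone H3.3 chaperone, had 20.0% of 45 reads and Tcl1, an activator of the kinase AKT, 16.7% of 30. Stat3, a transcription factor of cytokine signalling, had 10.1% of 148 reads. MII listed a site 61 nt from it at 48.1% of 104 reads.

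Meiotic cell cycle genes had 7 of 93 GV sites (7.53%, 3.08 to 14.9), below the 16.5% over all GV sites. Under 100 reads they had 4 of 18 (22.2%, 6.41 to 47.6), an interval that held the 32.2% over all. Espl1, the separase that cleaves cohesin, had 12.3% (9.40 to 15.8) of 438 reads at a Type II site, and Prkar2a, a regulatory subunit of protein kinase A, had 10.5% of 285 reads. Pkmyt1, the inhibitory kinase of CDK1, had 12.5% of 112 reads. Tpx2, a spindle assembly factor, had 16.7% of 72 and Aurkb, an aurora kinase, 10.0% of 70. Msh4, a protein of meiotic recombination, had 25.7% (12.5 to 43.3) of 35 reads. Genes that write, read or remove m5C, or were grouped with them, had 4 of 28 (14.3%, 4.03 to 32.7), near the share over all GV sites, and 3 of 7 (42.9%) under 100 reads. Of these, Nsun2, the Type I enzyme itself, had its only GV site in the coding sequence at 10.8% (7.21 to 15.3) of 251 reads. MII listed no site of Nsun2, and the 1-cell embryo listed 1, 4144 nt away on the genome, at 43.4% of 53 reads. Nop2 had 11.6% of 43, Nsun5 24.0% of 25 and Rad52, a recombination protein, 22.2% of 27.

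Larger gene groups followed the coverage of their sites in part. Zinc finger genes had 57 of 278 (20.5%, 15.9 to 25.7), solute carriers 54 of 274 (19.7%), adhesion and extracellular matrix genes 31 of 151 (20.5%) and RIKEN or Gm named transcripts 110 of 437 (25.2%, 21.2 to 29.5), against 16.5% over all GV sites. The median coverage of their GV sites was 85.5, 93.5, 95 and 81 reads, against 121 over all. Among sites under 100 reads these groups had 33.8%, 31.2%, 35.9% and 40.5% (34.3 to 47.0), against 32.2% (31.1 to 33.3) over all. Groups below the share over all GV sites were chromatin genes with 32 of 323 (9.91%), splicing factors and RNA helicases with 19 of 200 (9.50%), mRNA decay and translation control with 11 of 119 (9.24%), and the proteasome and deubiquitinases with 11 of 137 (8.03%). Their GV sites had median coverages of 185, 159.5, 192 and 200 reads. Under 100 reads the 4 groups had 28.4%, 25.9%, 23.7% and 23.3%, with intervals that held the share over all.

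Ubiquitin conjugation and ligase genes had 65 of 399 (16.3%), kinases 44 of 270 (16.3%), protein phosphatases 35 of 197 (17.8%), microtubule and motor genes 41 of 231 (17.7%) and vesicle traffic genes 48 of 346 (13.9%). Cytosolic ribosomal proteins had 6 of 40 (15%, 5.71 to 29.8), mitochondrial ribosome, respiration and import genes 8 of 91 (8.79%, 3.87 to 16.6) and translation factors 5 of 64 (7.81%, 2.59 to 17.3). The granulosa marker Nr5a2, a nuclear receptor also used by the early embryo, held 12.8% of 125 reads in its 3′ UTR, and the 1-cell embryo listed 6 other sites of the gene at a median of 71 reads. The lists are described by counts, with no test.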

How the data were processed

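RNA bisulfite sequencing lists of 1 GV oocyte, 1 MII oocyte and 1 1-cell embryo library were used. According to the methods and the submitters' processing notes, adapters were removed (cutadapt 1.13, Trimmomatic 0.36), reads were mapped to GRCm38 (HISAT2, Bowtie2 2.2.9) and sites were filtered on coverage, level, unconverted reads and genes that resist conversion. The authors deposited coverage as a count of reads at the site, the m5C level as a fraction (given here in percent) and a one-sided binomial p-value that sets the unconverted reads against the background of the gene. The labels name polyadenylated RNA and the methods name RNA depleted of ribosomal RNA. The lowest coverage in the lists was 20 reads, the lowest level 10% and the fewest unconverted reads 5.

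GV-alone sites were found by exact match of chromosome, position and strand. Unconverted reads were level times coverage, whole to within 2.9e-05 reads. All 15900 GV sites on chromosomes were C in the genome. Genes were named by identifier in GENCODE M21, which held 1951 of the 1952 identifiers with GV-alone sites, and regions were assigned in the order CDS, 5′ UTR, 3′ UTR and other exon. The gene background was solved from the deposited p-value of each site by inverting the binomial tail (tested on simulated data, 1278 GV sites with p-values under 1e-300 left out). Windows were folded with RNAfold 2.7.2 at 37 °C. Tables were handled with pandas 2.3.3 and numpy 2.4.6 under Python 3.11.15, intervals came from scipy 1.17.1, and sequence was read with pysam 0.24.0.

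With 1 library per stage there was no test, and intervals cover counting error over sites that share transcripts, with reads that carry no molecular identifiers. The sites and gene lists were chosen with earlier results of these data known. Genes were named by rule: the 10 sites of highest level with at least 100 reads, the 10 of highest coverage, the 6 genes with most GV-alone sites, the 6 genes with most sites among those in neither later list, the 6 Type II sites of highest level with at least 50 reads, and each site in the oocyte-secreted, maternal effect, meiotic, m5C and granulosa lists. A meiotic list site that falls under this rule is not reported here. Gata4, 6330562C20Rik, Dcaf15 and Ints1, and the surrounding sites of named genes, were added after their values were seen. Alternatives were other limits of coverage and level, a position tolerance of 2 nt, subsets of genes, and other region orders, motif and window sizes.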

Additional observations from a re-analysis of the deposited data

How the results depend on the processing

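GV-alone sites and their values depend on the limits set, and the alternatives act through which sites they keep. With at least 50 GV reads, 1171 sites remained, 9.24% of such GV sites, with a median level of 12.2%, a median coverage of 78 reads, CDS, 5′ UTR and 3′ UTR shares of 69.0%, 10.4% and 18.4%, and 6.75% in genes of neither later list. With at least 100 reads, 404 remained, 4.48% of GV sites, with 11.8% and 150 reads, CDS and 3′ UTR shares of 74.3% and 12.9%, a mean of 2.15 G, pairing of 59.0% and 4.70% in genes of neither list. At a GV level of at least 20% the 908 sites were 11.7% of GV sites, with 28.0% and 28 reads, CDS, 5′ UTR and 3′ UTR shares of 54.7%, 14.4% and 25.8%, a mean of 2.27 G and 21.6% in genes of neither list. Within genes listed in MII the share was 13.9%, with 14.7% and 48 reads, and within genes listed in both later stages it was 11.6% (1506 sites). Sites absent from MII, whatever the 1-cell list, were 18.6%, with 14.7% and 48.5 reads. With 50 reads needed in each list the share was 17.1%, and with a level of 20% needed in each the number was 1299. With the 3′ UTR counted first, the CDS and 3′ UTR shares were 52.2% and 30.7%. With windows of 61 nt the paired share was 53.9%. The other 37 values moved by less than their counting interval, or, for the number of sites, by less than 1.5 times. Leaving out a replicate was not possible, and no paired analysis was possible because each stage had 1 library. Depth limits what absence shows, since the median number of unconverted reads at a GV-alone site was 8 and the lists need 5.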
